A study of Homo sapiens with 6 samples.

Results

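SATR1 and SATR2 are families of repeats that RepeatMasker, a program that annotates repeats in a genome, classes as satellites. Loci were taken by name: a row of the deposited satellite table belongs to them if its family is SATR1 or SATR2. This gave 544 SATR1 loci and 262 SATR2 loci, 806 of the 9566 loci in the table. Satellites are noncoding DNA built mostly of units repeated in tandem, and the best known human ones form the centromeres and the heterochromatin beside them. That heterochromatin is normally packed tightly and gives little RNA, and RNA from it has been reported in cancers. SATR1 and SATR2 are far less studied than alpha satellite or HSATII, the pericentromeric satellite the study was built around.

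The cells were SW620, an established line of human colon cancer. RNA and DNA were each sequenced at 3 stages: in 2D culture (RPMI1640 with 10% FBS) before xenografting, as a subcutaneous xenograft in a Nu/Nu mouse, a strain that lacks a thymus and so tolerates human tumours, and in 2D culture after the xenograft. Each of these 6 groups is 1 library of the same line, the labels name no other agent or allele, and they do not say how many mice or cultures stood behind a library. Differences therefore have no replicate check, and every interval given is a 95% interval for counting error only. The identity of the cells could not be checked against marker genes, since the table holds 0 gene rows.

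The deposited unit is RPM, reads per 1000000 reads of the library, and whole reads could be recovered from it. Each count of a read at a locus is termed a hit here, and a read may have been counted at more than 1 locus. With the smallest RPM taken as 1 read, the RNA totals were 157326 reads before the xenograft, 1077925 in it and 240046 after it. The DNA totals were 3080853 to 4355426 reads. Which reads these totals count, with or without mouse reads, is not given, and every RPM ratio of the xenograft carries that limit. A locus with 0 hits could hold up to 19.1, 2.78 and 12.5 RPM of RNA at the 3 stages, taking 3 reads as the limit, and less than 1 RPM of DNA. The DNA library of the culture before stood apart from the other DNA libraries, with 0.854% satellite hits per read against 9.88% in the xenograft and 10.4% after it, and every DNA ratio against it below carries that gap.

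SATR1 loci were longer than SATR2 loci, and both were longer than the other satellite loci. SATR1 loci ran from 25 to 13091 bp with a median of 1263 bp. SATR2 loci ran from 15 to 5439 bp with a median of 966.5 bp, against a median of 365 bp over the other 8760 satellite loci. Locus lengths in the hg19 genome build summed to 922.742 kb for SATR1 and 328.475 kb for SATR2, the sums behind RPM per kb below. An overlap with another locus was found at 203 SATR1 loci (37.3%) and 127 SATR2 loci (48.5%). Some sequence is therefore counted more than once in these sums. SATR1 lay on 27 chromosomes and unplaced contigs and SATR2 on 21. Of the SATR1 loci 296 were annotated on the plus strand and 248 on the minus strand, and of the SATR2 loci 134 and 128.

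The families lay beside each other and away from the other satellites. Within 10 kb, 507 SATR1 loci (93.2%) had another SATR1 locus and 285 (52.4%) had a SATR2 locus. Of the SATR2 loci, 218 (83.2%) had a SATR1 locus that near and 206 (78.6%) another SATR2 locus. A locus of any other family was that near at 4 SATR1 loci (0.735%) and 2 SATR2 loci (0.763%), and those neighbours belonged to the families TAR1 and GSATII. This is not particular to them. Such a neighbour was found at 0 of 254 D20S16 loci, 0.633% of MSR1 and 2.67% of BSR/Beta loci, and at up to 67.9% (GSATX) elsewhere. None of the 806 loci lay within 10 kb of an alpha satellite (ALR/Alpha) or HSATII locus. Joining loci within 10 kb of each other gave 168 runs. Of these, 83 runs held both families and 535 loci (66.4%), 61 runs held 1 family and 247 loci, and 24 were single loci. The run with the most loci, 12 SATR1 and 11 SATR2, spanned 53.8 kb at chromosome 5, 135088116 to 135141937.

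RNA hits of both families were few in the cultures and many in the xenograft. SATR1 RNA stood at 127 RPM before the xenograft (20 hits, exact Poisson interval 77.7 to 196), 428 RPM in it (461 hits, 390 to 469) and 62.5 RPM after it (15 hits, 35.0 to 103). SATR2 RNA stood at 133 RPM (21 hits, 82.6 to 204), 267 RPM (288 hits, 237 to 300) and 58.3 RPM (14 hits, 31.9 to 97.9). The xenograft library was the highest of the 3 for both families. The intervals of both cultures overlapped within each family, which does not show equal levels. The direct ratio of the culture after over the culture before was 0.492 for SATR1 (0.234 to 1.01). For SATR2 it was 0.437 (0.206 to 0.901), below 1 with its whole interval over all its loci. Per kb of annotated sequence, SATR2 was above SATR1 in every RNA library, at 0.406, 0.813 and 0.178 RPM per kb against 0.138, 0.463 and 0.0677. Without the 2 SATR2 loci with the most hits, on chromosomes 19 and 2, its levels were 0.175, 0.550 and 0.127 RPM per kb.

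**Figure D1:**
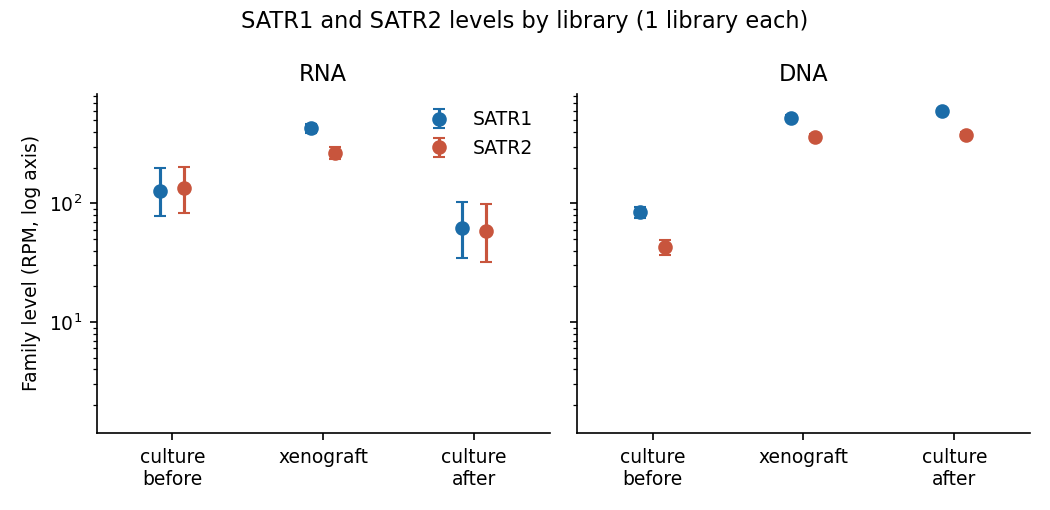
RPM of SATR1 and SATR2 summed over their loci (log axis) in each RNA and DNA library, with exact Poisson 95% intervals that cover counting error only. RNA was highest in the xenograft, at 428 and 267 RPM, while DNA was low in the culture before, at 84.3 and 42.9 RPM, and near level in the xenograft and the culture after.

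The DNA libraries gave a different order of stages. SATR1 DNA was at 84.3 RPM before the xenograft (367 hits, 75.9 to 93.3), 525 RPM in it (1697 hits, 501 to 551) and 595 RPM after it (1832 hits, 568 to 623). SATR2 DNA was at 42.9 RPM (187 hits, 37.0 to 49.5), 361 RPM (1165 hits, 340 to 382) and 374 RPM (1152 hits, 353 to 396). The culture before was the low library for both families, and the step from the xenograft to the culture after was a ratio of 1.13 for SATR1 (1.06 to 1.21) and 1.04 for SATR2 (0.955 to 1.13). The RPM ratio of the xenograft over the culture before was 6.23 for SATR1 (5.56 to 6.996) and 8.40 for SATR2 (7.19 to 9.85). This direction belongs to the RPM scale: with libraries scaled by TMM over the satellite loci, which shifts every log2 ratio of this pair by -3.04, the ratios were 0.760 and 1.02. The deposited RPM sets the hits against the total of reads its authors used, whereas TMM sets them against the satellite loci. Which reads that total counts, and whether mouse reads are among them, is not given.

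Set against the sum of all other satellite hits, SATR1 and SATR2 changed less between the culture before and the xenograft. That sum is mostly alpha satellite (ALR/Alpha), which held 72.2% of satellite hits in xenograft RNA and 67.3% in xenograft DNA. Together they made up 5.17% of satellite hits in RNA before the xenograft (41 of 793 hits, Wilson interval 3.83 to 6.94), 0.953% in it (749 hits, 0.888 to 1.02) and 0.927% after it (29 hits, 0.646 to 1.33). Their DNA counterparts were 1.49% (1.37 to 1.62), 0.896% (0.864 to 0.929) and 0.933% (0.900 to 0.966). The culture before was the high library in both RNA and DNA, and the intervals of the xenograft and the culture after overlapped. As an odds ratio, which no scaling of libraries can move, hits of both families against all other satellite hits stood at 0.177 (0.128 to 0.250) for RNA in the xenograft over the culture before. The same odds ratio was 0.598 in DNA (0.545 to 0.657). From the xenograft to the culture after it was 0.972 in RNA (0.646 to 1.41) and 1.04 in DNA (0.988 to 1.10), with intervals that span 1. With alpha satellite left out of the other satellites, the odds ratios of the xenograft over the culture before were nearer to 1, at 0.328 in RNA (0.235 to 0.468) and 0.774 in DNA (0.705 to 0.851). Those of the culture after over the xenograft then lay away from 1, at 0.488 in RNA (0.324 to 0.710) and 1.13 in DNA (1.07 to 1.19).

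**Figure D2:**
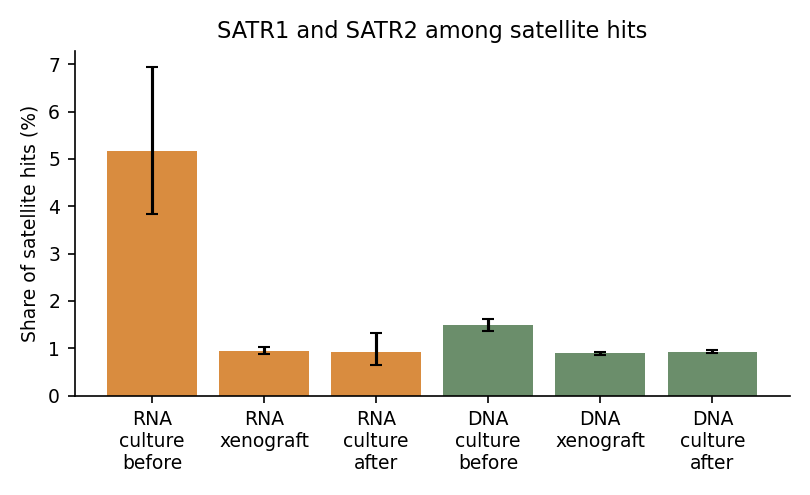
SATR1 and SATR2 hits as a percent of all satellite hits in the 6 libraries, with Wilson 95% intervals for counting error. The share was 5.17% in RNA and 1.49% in DNA of the culture before and between 0.896% and 0.953% in the other 4 libraries.

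Family by family, ranked from the highest, SATR1 and SATR2 were mostly in the lower part by density. By RPM per kb SATR1 ranked 19 and SATR2 18 of 24 families in xenograft DNA, and 21 and 18 in xenograft RNA. The highest rank of either was that of SATR2 in RNA of the culture before, 12 of 24. By the RNA ratio of the xenograft over the culture before they ranked 9 and 13 of the 20 families that had one, with 3.36 and 2.00 against a median of 2.76. By the DNA ratio they ranked 12 and 10 of 23. For the culture after over the xenograft the ranks were 15 and 12 of 23 in RNA and 4 and 7 of 24 in DNA. For the culture after over the culture before they were 15 and 16 of 20 in RNA and 12 and 11 of 23 in DNA. Profiles over the 6 libraries were compared as the mean absolute difference on the log2(RPM + 5) scale after centring each family. By that measure the families nearest to SATR1 were SATR2 at 0.30, CER at 0.36 and HSAT5 at 0.42. Those nearest to SATR2 were HSAT5 at 0.24, D20S16 at 0.25 and SATR1 at 0.30.

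The families differed from each other in DNA, and the difference moved when a few loci were left out. Those loci were chosen by hits that enter the odds ratio below, so the shifts are in part built in. They show only how much these loci weigh. The odds ratio of SATR1 against SATR2 hits in DNA of the xenograft over the culture before was 0.742 (0.609 to 0.902). Without the 2 SATR2 loci with the most hits it was 0.914 (0.743 to 1.12), and without the first of them alone 0.820 (0.669 to 1.002). Without the loci of either family that had 10 or more DNA hits in the culture before, 8 SATR1 and 2 SATR2, it was 1.15 (0.919 to 1.45), on the other side of 1. In RNA the same odds ratio was 1.68 (0.850 to 3.33), and 1.07 without both loci (0.421 to 2.51), with intervals that span 1.

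The first of these loci lies at chromosome 19, 9301347 to 9301946 (plus strand, 600 bp), with no other satellite locus within 10 kb. It had 10, 57 and 3 RNA hits before, in and after the xenograft, or 63.6, 52.9 and 12.5 RPM. Its DNA hits were 14, 189 and 167, or 3.21, 58.5 and 54.2 RPM. The RNA ratio of the xenograft over the culture before was 0.832, and the 10 hits before leave its interval wide (0.421 to 1.83). The DNA ratio was 18.2 (10.6 to 33.9). It carries the gap of the DNA library of the culture before, against which the other satellites together had a ratio of 11.6. This 1 locus held 10 of the 21 SATR2 RNA hits of the culture before, so the RNA ratio of SATR2, 2.00 (1.28 to 3.28), was 3.07 without it (1.68 to 6.23). Scaled by size factors over the satellite loci, the ratio over all SATR2 loci was 1.40, with an interval that spans 1 (0.902 to 2.30). The RNA ratio of the culture after over the culture before, 0.437 (0.206 to 0.901), was 0.655 without it, with an interval that spans 1 (0.258 to 1.67).

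The second lies at chromosome 2, 203450861 to 203451604 (plus strand, 744 bp). It had 2, 37 and 1 RNA hits, or 12.7, 34.3 and 4.17 RPM, and 6, 131 and 140 DNA hits, or 1.38, 40.5 and 45.4 RPM. Its RNA was highest in the xenograft, with a ratio over the culture before of 2.70 that its few hits leave wide (0.697 to 23.1). Its DNA ratio was 29.4 (13.2 to 81.7). Together these loci cover 0.409% of SATR2 sequence and held 57.1%, 32.6% and 28.6% of SATR2 RNA hits at the 3 stages. Of SATR2 DNA hits they held 10.7%, 27.5% and 26.6%. The other SATR2 loci had at most 23 DNA hits in the xenograft. Both loci had about as much RNA as DNA in the xenograft, with a ratio of RNA over DNA RPM of 0.881 for their sum (0.692 to 1.11). Without both, the DNA ratio of SATR2 was 6.82 (5.77 to 8.10) and its RNA ratio 3.15 (1.62 to 6.98).

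**Figure D3:**
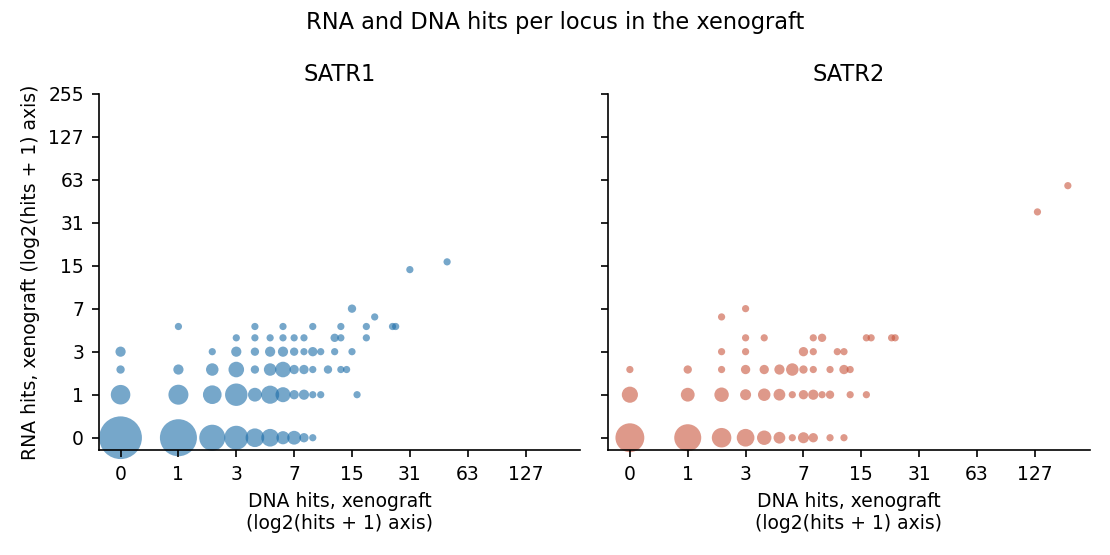
RNA hits against DNA hits per locus in the xenograft libraries for SATR1 and SATR2, both on log2(hits + 1) axes labelled in hits; the area of a circle grows with the number of loci at that point. The SATR2 loci on chromosomes 19 and 2 stand apart with 57 and 37 RNA hits and 189 and 131 DNA hits.

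In the xenograft, SATR1 hits were less gathered at single loci than SATR2 hits. The 10 SATR1 loci with the most hits cover 4.82% of SATR1 sequence and held 14.5% of its RNA hits and 13.1% of its DNA hits there. The 10 such SATR2 loci cover 10.8% of SATR2 sequence and held 42.0% and 38.2%. Most of that sat at the SATR2 loci on chromosomes 19 and 2, which held 32.6% and 27.5%. For the 10 loci of each family the order was the reverse in 2 other libraries. SATR1 held 46.7% against 28.6% in RNA of the culture after, from 15 and 14 hits. In DNA of the culture before it held 31.9% against 15.5%. The largest, at chromosome 6, 63561640 to 63570521 (plus strand, 8882 bp), had 3, 16 and 1 RNA hits (19.1, 14.8 and 4.17 RPM) and 23, 49 and 70 DNA hits (5.28, 15.2 and 22.7 RPM). Its DNA was lowest in the culture before and highest in the culture after, where the ratio over the xenograft was 1.498 (1.03 to 2.21). A SATR1 locus inside the 53.8 kb run on chromosome 5, 135113038 to 135115878 (2841 bp), had 1, 14 and 2 RNA hits and 17, 31 and 62 DNA hits. Its DNA ratio of the culture after over the xenograft was 2.10 (1.34 to 3.34). These intervals are not adjusted for the number of loci looked at, and no SATR1 or SATR2 locus passed the count test below for this pair of libraries.

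Some loci went against the family in DNA. Of the 10 loci with 10 or more DNA hits in the culture before (8 SATR1 and 2 SATR2), a SATR1 locus at chromosome 2, 159705757 to 159707838 (minus strand), went from 20 hits to 1 in the xenograft and 3 after it. That is 4.59, 0.309 and 0.974 RPM, 14.8-fold lower in the xenograft (2.37 to 615). A SATR2 locus at chromosome 7, 99190879 to 99191856 (minus strand), went from 16 hits to 1 and 1, which is 11.9-fold lower (1.84 to 498). On chromosome 6, the SATR1 locus at 58573162 to 58575569 went from 22 hits to 9 and 6 (5.05, 2.79 and 1.95 RPM), with an interval that spans no difference. At chromosome 15, 40423170 to 40425879, SATR1 DNA was level at 28, 26 and 24 hits, a ratio of 1.25 in the xenograft over the culture before (0.705 to 2.21). These loci were set aside after their values were seen. They were picked for many hits in the culture before, which by itself favours lower values elsewhere. The intervals do not allow for that choice.

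**Figure D4:**
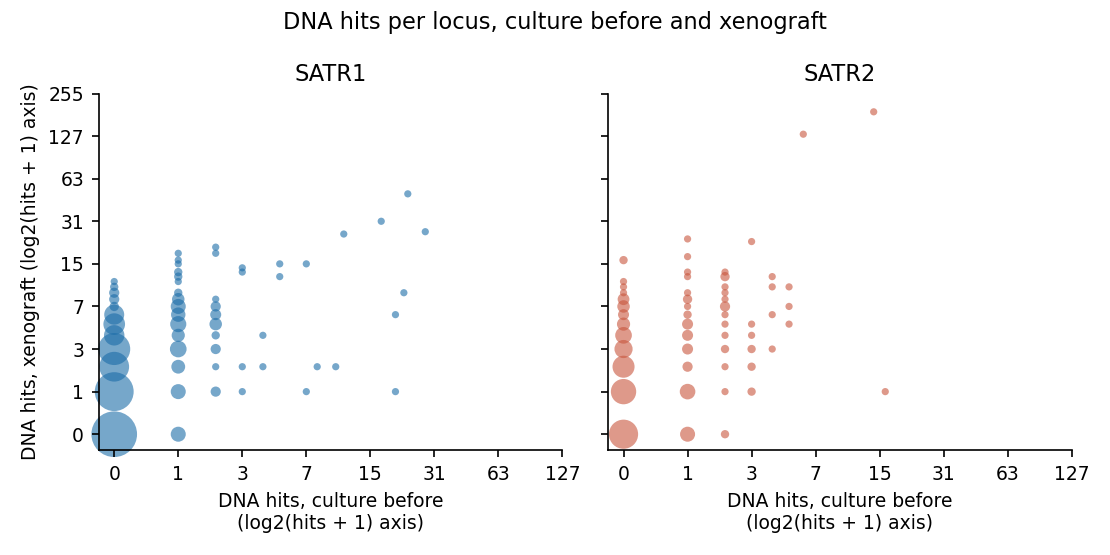
DNA hits per locus in the xenograft against the culture before for SATR1 and SATR2, both on log2(hits + 1) axes labelled in hits; the area of a circle grows with the number of loci at that point. Most loci had 0 or 1 hit before, and a few with 10 or more hits before had fewer in the xenograft, such as the SATR1 locus with 20 and 1 hits and the SATR2 locus with 16 and 1.

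The 8 SATR1 loci of that kind held 41.1% of SATR1 DNA hits in the culture before, 8.78% in the xenograft and 11.2% after it. Without them the DNA ratio of SATR1 was 9.66 (8.37 to 11.2) in place of 6.23. Leaving out loci for their hits in the denominator raises a ratio by construction, so this value shows only how much of the culture-before total sat at a few loci. Of the 8, 4 lie on chromosome 6, and outside that chromosome the SATR1 DNA ratio was 7.65 (6.71 to 8.75).

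By chromosome the DNA ratio of the xenograft over the culture before, in RPM, was uneven in both families. For SATR1 its interval was above 1 on 25 of 27 chromosomes and contigs and below 1 on 0. That count carries the gap of the DNA library of the culture before and was not made for the other satellites. The ratio was 2.55 on chromosome 6 (2.00 to 3.28), 3.04 on chromosome 2 (2.02 to 4.67) and 3.85 on chromosome 5 (2.60 to 5.83), against 14.6 on chromosome 4 (8.46 to 27.4). Set against the rest of SATR1 as an odds ratio, chromosomes 2, 5, 6 and 15 were below 1 with their whole interval and chromosomes 1, 3, 4, 8 and 11 above it. On chromosome 6 that odds ratio was 0.333 (0.252 to 0.443). Of the 8 SATR1 loci with 10 or more DNA hits in the culture before, 7 lie on these low chromosomes, and their hits are part of the denominator that makes the ratio there low.

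SATR2 was uneven in the same measure. Its DNA ratio had an interval above 1 on 17 of 21 chromosomes and contigs and below 1 on 0, with the same limit. The ratio was 17.3 on chromosome 19 (10.3 to 31.6) and 13.7 on chromosome 2 (8.63 to 22.9), which hold the SATR2 loci with the most hits, and 3.09 on chromosome 7 (1.88 to 5.22). Chromosome 19 holds 3 SATR2 loci and 1.29% of the family's sequence, with 22.0% of its RNA hits and 15.1% of its DNA hits. Over chromosomes, hits followed the annotated length: Spearman's rho of kb and DNA hits in the xenograft was 0.90 for SATR1 (27 points) and 0.82 for SATR2 (21 points). With RNA hits it was 0.89 and 0.78. These points share a library and a read depth.

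**Figure D5:**
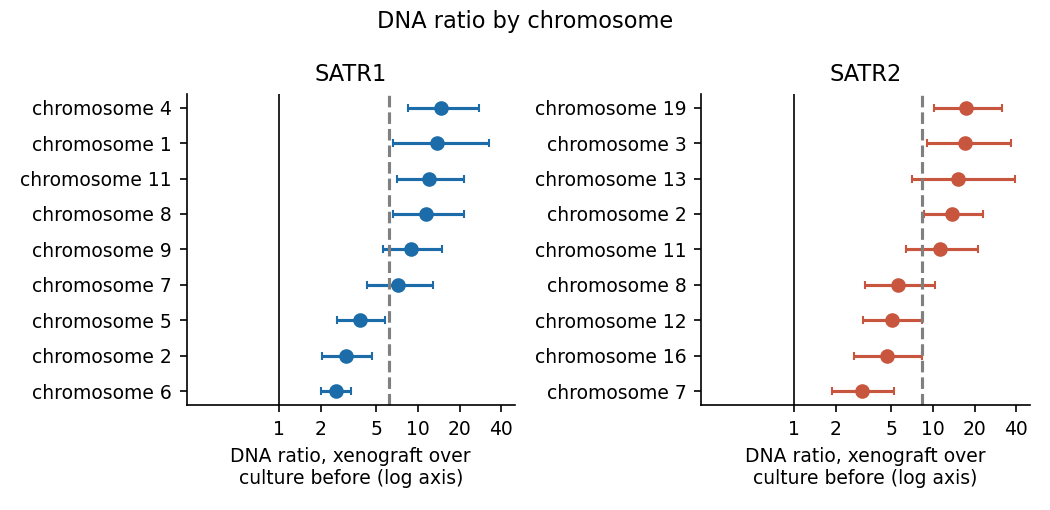
DNA ratio of the xenograft over the culture before (log axis) for each chromosome with at least 5% of a family's RNA or DNA hits, with 95% intervals for counting error; the solid line marks 1 and the dashed line the ratio of the whole family. SATR1 ran from 2.55 on chromosome 6 to 14.6 on chromosome 4, and SATR2 from 3.09 on chromosome 7 to 17.3 on chromosome 19.

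Between the xenograft and the culture after, the DNA ratio had an interval above 1 on 3 chromosomes in each family and below 1 on none, with no adjustment for the number looked at. SATR1 was higher in the culture after on chromosome 5, with a ratio of 1.46 (1.12 to 1.90), on chromosome 6, with 1.26 (1.03 to 1.53), and on chromosome 10, with 2.33 (1.01 to 5.81). SATR2 was higher on chromosome 16, at 1.67 (1.21 to 2.34), on chromosome 1, at 2.18 (1.09 to 4.60), and on chromosome 4, at 1.62 (1.04 to 2.55). On chromosome 16, the SATR2 locus at 77747339 to 77748360 went from 2 to 13 DNA hits, a ratio of 6.82 (1.54 to 62.2).

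Longer loci were more often hit. The share of SATR1 loci with a DNA hit in the xenograft was 0% under 200 bp, 39.7% from 200 to under 500 bp, 72.4% from 500 to under 1000 bp and 92.4% at 1000 bp and over. For SATR2 the shares were 12.5%, 57.5%, 79.2% and 96.0%. In the 3 classes from 200 bp up, the SATR1 density in xenograft DNA was 0.637, 0.736 and 0.550 RPM per kb, and in the culture after it was less even, at 0.358, 0.945 and 0.612. The SATR2 density in xenograft DNA was 0.748, 3.65 and 0.803 RPM per kb in these classes, and the middle value was 0.819 without the loci on chromosomes 19 and 2, which both fall in it. The other satellites were denser in every class of xenograft DNA, at 5.49 to 8.55 RPM per kb. SATR1 loci under 200 bp, 35 in all, had 0, 0 and 14 DNA hits in the culture before, the xenograft and the culture after.

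Few loci had RNA outside the xenograft library. RNA hits fell on 16, 241 and 10 SATR1 loci before, in and after the xenograft, and on 11, 113 and 11 SATR2 loci. That was 2.94%, 44.3% and 1.84% of SATR1 loci and 4.20%, 43.1% and 4.20% of SATR2 loci. Of the other satellite loci, 4.89%, 46.2% and 7.04% had an RNA hit. Depth enters these counts, since the xenograft RNA library had the most reads. Thinned to 157326 reads, the expected numbers were 16, 58.2 and 7.39 SATR1 loci and 11, 27.5 and 7.74 SATR2 loci. The xenograft thus stayed the highest of the 3. It did so for the other satellites too, at 428, 1732 and 492 loci. Of the 16 SATR1 loci with RNA before the xenograft, 14 also had it in the xenograft, as did 10 of the 11 SATR2 loci. RNA in all 3 libraries was found at 3 SATR1 and 2 SATR2 loci. Of the loci with RNA in the xenograft, 215 of 241 SATR1 and 99 of 113 SATR2 loci also had a DNA hit there. Over all loci of each family 76.3% and 77.1% had one.

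RNA set against DNA of the same stage fell from the xenograft to the culture after. The ratio of RNA over DNA RPM was 1.51 for SATR1 before the xenograft (0.911 to 2.36), 0.814 in it (0.733 to 0.903) and 0.105 after it (0.0587 to 0.174). For SATR2 it was 3.11 (1.88 to 4.89), 0.741 (0.649 to 0.844) and 0.156 (0.0850 to 0.263). The other satellites gave 0.568, 0.737 and 0.125. In the culture before, the SATR2 ratio was 1.49 without the loci on chromosomes 19 and 2. RNA and DNA libraries were made by different protocols, so the level of such a ratio is a description. Its course from the culture before to the xenograft carries the gap of the DNA library of the culture before. The step from the xenograft to the culture after does not use that library.

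Most runs of loci went the way of their family in DNA on the RPM scale. Of 158 runs with a DNA hit in the culture before or the xenograft, RPM was higher in the xenograft in 155 and lower in 3. The interval of the ratio was above 1 in 119 runs and below 1 in 1. Runs of the other satellites were not counted in this way. Their summed DNA ratio was 11.6 (11.5 to 11.8). The counts of runs therefore carry the gap of the DNA library of the culture before and show nothing particular to these runs. The run of 23 loci on chromosome 5 had 3, 32 and 3 RNA hits and 37, 84 and 130 DNA hits at the 3 stages. SATR1 loci with a SATR2 locus within 10 kb had a DNA ratio of the xenograft over the culture before of 7.19 (6.05 to 8.60), against 5.54 (4.76 to 6.46) for the others. SATR2 loci with a SATR1 locus that near had 7.10 (5.92 to 8.56), against 12.3 (9.07 to 17.0) for the others, and the latter was 5.39 (3.51 to 8.55) without the loci on chromosomes 19 and 2. For SATR1 the RNA ratios were 6.13 (2.59 to 19.1) and 2.44 (1.45 to 4.43). The intervals overlap in both SATR1 pairs, which does not show that the ratios were equal. No odds ratio was taken for these pairs. The SATR1 loci with 10 or more DNA hits in the culture before were not left out here.

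Some loci share their values with another. Among the 306 SATR1 loci whose hits summed to 5 or more, 101 (33.0%) held the same hits in every library as another SATR1 locus, as did 30 of 149 SATR2 loci (20.1%). Over all satellite families this was 27.0%. Low hits can coincide, and among loci with 20 or more hits it was 0 of 31 SATR1 and 0 of 28 SATR2 loci. Pairs of equal length and equal hits were 2, both SATR1. The first was 493 bp at chromosome 9, 69177897 to 69178389 and 70941178 to 70941670, with 9 hits each. The second was 2204 bp at chromosome 3, 75657630 to 75659833, and an unplaced contig, with 18 hits each. How reads with several matches were counted is not given in the sources used here.

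Single loci were also counted by a fixed size, a difference of at least 2-fold on the log2(RPM + 5) scale where either library reached 20 RPM. Few SATR1 and SATR2 loci reached 20 RPM, and those that did had to be high in 1 library. For RNA in the xenograft over the culture before, 1 of 2 was higher, the SATR2 locus on chromosome 2, against 89.1% of all satellite loci. The lower direction held 0 of 2 against 1.06%. In the culture after over the xenograft 2 of 2 were lower, against 69.2%, and 0 higher, against 18.2%. For the culture after over the culture before 1 of 1 was lower, the SATR2 locus on chromosome 19, against 7.59%, and 0 higher, against 71.7%. For DNA in the xenograft over the culture before 2 of 2 were higher, against 89.6%, and 0 lower, against 2.03%. In DNA of the culture after over the xenograft 0 of 4 passed in either direction, against 0% and 0% of all loci, with a median log2 difference of 0.30 against 0.08. In the culture after over the culture before 4 of 4 were higher, against 92.2%, and 0 lower, against 1.74%, with medians of 2.17 and 2.75.

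A count test on the recovered reads reached more loci. It was the exact binomial test given the sum of both libraries' hits, adjusted by Benjamini-Hochberg over all satellite loci, and it compares libraries, not conditions. In DNA of the xenograft over the culture before, 147 of 641 SATR1 and SATR2 loci (22.9%) were higher, 97 of them SATR1 and 50 SATR2, against 43.8% of all satellite loci tested. The 2 that were lower, against 0.563% of all, were 1 of each family. For the culture after over the culture before 139 of 653 (21.3%) were higher, against 42.1%, and 3 lower, against 0.593%. Between the xenograft and the culture after 0 of 708 passed, against 0.541% higher and 0.278% lower. In RNA 0 of 357, 0 of 362 and 0 of 43 loci passed in the 3 comparisons. The shares over all loci were 3.69% higher and 0% lower in the xenograft over the culture before. They were 1.18% and 4.85% in the culture after over the xenograft, and 4.32% and 0.341% in the culture after over the culture before. SATR1 and SATR2 loci hold few RNA hits each, so a single locus seldom had the depth to pass. Depth also enters the DNA shares. Both families had a median of 2 DNA hits per locus in the xenograft. Their DNA density there was 0.569 and 1.10 RPM per kb, against 8.04 for the other satellites. The lower DNA shares therefore do not show that these loci rose less often.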

How the data were processed

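Per the labels' protocols, TRIzol was used for RNA and a DNeasy kit for DNA, and both were read on the Helicos single-molecule platform, RNA under its digital gene expression protocol. The authors deposited 1 table of RPM values per satellite locus. Coordinates are in hg19 (submitters' processing notes). Not given in the sources used here are the aligner, the strand rule, the handling of reads with several matches and of mouse reads, and the reads behind the total.

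In each library 100% of the nonzero RPM values were whole multiples of the smallest, within 0.01 reads, so hits were recovered as whole reads. Families are sums over loci. Intervals are exact Poisson for levels, Wilson for shares and Clopper-Pearson, given the sum of both libraries' hits, for ratios. These treat hits as independent reads. No p-value is given, since each group is 1 library. Named were both families, chromosomes with at least 5% of a family's hits, the 10 loci with most RNA and the 10 with most DNA hits, and the 3 highest and lowest differences per comparison at 20 RPM. The families and lists were chosen with earlier results of these data known, and loci set aside were chosen after their values were seen. Alternatives were TMM (edgeR 4.0.16), size factors (DESeq2 1.42.0), totals without satellite hits, identical loci counted once, other minimums and a pseudocount of 1. A count test and the leaving out of loci were added after seeing the data. The scripts were tested on simulated data. Software was Python 3.11.15 with SciPy 1.17.1, pandas 2.3.3, NumPy 2.4.6 and matplotlib 3.10.9, and R 4.3.3.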

Additional observations from a re-analysis of the deposited data

Results flagged for a closer look

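The step from the xenograft to the culture after differed between RNA and DNA in both families. The SATR1 ratio of the culture after over the xenograft was 0.146 in RNA and 1.13 in DNA, and the ratio of these ratios was 0.129 (95% interval 0.0714 to 0.216). The SATR2 ratio was 0.218 in RNA and 1.04 in DNA, and the ratio of ratios was 0.210 (0.113 to 0.362). All other satellites together gave 0.179 in RNA and 1.05 in DNA for the same step. Each value rests on 1 library, the intervals cover counting error only, and the difference could not be tested against a spread between replicates.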

How the results depend on the processing

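No paired analysis was possible because each group is 1 library and the labels carry no replicate numbers. In DNA, scaling decided the direction against the culture before: for the xenograft SATR1 was 0.760 (TMM) and 0.700 (size factors) and SATR2 1.02 and 0.943. For the culture after SATR1 was 0.899 and 0.830 and SATR2 1.11 and 1.02. RNA ratios kept their direction under both scalings, but the interval of SATR2 in the xenograft over the culture before spanned 1 with size factors (1.40, 0.902 to 2.30). That of SATR1 in the culture after over the culture before no longer did with TMM (0.273, 0.130 to 0.561) or size factors (0.259, 0.123 to 0.531), and for SATR2 these ratios were 0.243 and 0.230. With TMM the culture after over the xenograft was 0.0915 for SATR1 and 0.137 for SATR2. Ratios with totals without satellite hits kept their direction. With identical loci counted once the SATR1 DNA ratio in the xenograft was 5.48, and the DNA odds ratio of SATR1 against SATR2 for that pair was 0.658.

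Leaving out loci moved the DNA ratios of each family over the culture before and kept them above 1. For SATR1 in the xenograft they were 7.65 outside chromosome 6 and 9.66 without the loci of 10 or more DNA hits before, and in the culture after 8.54 and 10.6. For SATR2 without its loci with most hits they were 6.82 and 7.15, and RNA over DNA before was 1.49. The DNA odds ratio of SATR1 against SATR2, xenograft and culture after over the culture before, was 0.914 and 0.987 without those SATR2 loci. It turned to 1.15 and 1.20 without the loci of 10 or more DNA hits before in both families.

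Counts of loci at least 2-fold apart followed the rule. For RNA in the xenograft over the culture before, higher counts were 0 with size factors or the count test and 6 with a minimum of 5 RPM or none, and lower counts 1 with either scaling and 4 with either minimum. Between the xenograft and the culture after they were 2 higher and 7 lower with either minimum, and 0 lower by the count test. Against the culture before they were 2 higher and 24 lower with either minimum, 3 lower with either scaling and 0 by the count test. At 5 RPM, 1 RNA read in the culture before (6.36 RPM) is enough to enter. Such a read against 0 gives a log2 difference of -1.18 and is called lower by the rule itself. That was also the median of the 29 loci tested. The share over all satellite loci was not counted at this minimum, with no minimum or under either scaling. Counts under those settings show how the rule acts and say nothing particular to these loci. Shares for the count test are given above. In DNA in the xenograft, higher counts were 0 with either scaling, 6 with either minimum and 147 by the count test, and lower counts 3 with either scaling and 2 by the count test. For the culture after they were 1 higher and 2 lower with either scaling, and 139 and 3 by the count test. A pseudocount of 1 RPM moved no count by over 1.5 times. RNA of the cultures, with 14 to 21 hits per family, limits what can be seen.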
